A study of Mus musculus with 12 samples.

Results

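Kupffer cells, the resident macrophages of the liver, and the other leukocytes of that organ were followed through 39 marker genes, of 18193 genes with a probe set of their own. The markers were chosen by name, with earlier results of these data known. Of these, 19 are markers of macrophages, 4 of antigen presentation and 9 of T and natural killer (NK) cells. Another 3 mark B cells, 2 mark neutrophils and 2 are shared by many leukocytes (Ptprc and Itgam). All 39 were on the array, and where a gene had several probe sets the brightest in liver was read. Livers labelled SPS1 knockout (KO 1 to 3) came from 3 male C57BL/6 mice at 3 months of age that, by the labels, lack selenophosphate synthetase 1 (SPS1, gene Sephs1) in hepatocytes through Alb-Cre, a recombinase driven by the albumin promoter. Control livers (1 to 3) came from 3 male C57BL/6 mice of that age, whose alleles the labels do not give. The second pair of groups was F9, a male mouse embryonal carcinoma line of strain 129, with 3 samples that carry an shRNA against SPS1 (shSPS1) and 3 control samples. All 12 RNA samples were read on Affymetrix 3′ arrays as log2 signal. The labels call the samples of a group biological replicates but do not say whether those of F9 were grown as separate cultures. A p-value in F9 therefore covers only how these samples spread, which may be technical.

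Kupffer cells line the liver sinusoids, where they engulf bacteria, worn red cells and debris, and they depend on the growth factor receptor CSF1R. Macrophages, dendritic cells and B cells show peptides to CD4 T cells on MHC class II molecules, whose alpha and beta chains are made with the invariant chain CD74. None of these cells is a hepatocyte, and albumin-driven Cre is not expected to delete the gene in them. A whole-liver extract holds RNA of every cell type, so fewer cells of a type and less RNA per cell cannot be told apart in these values.

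The promoters of 2 class II chain genes and of Cd68 are shown because H2-Eb1 and H2-Aa had the most negative differences among the bright markers in liver and Cd68 was the only marker past the threshold in F9. Each is the 250 bases upstream of the gene's start in RefSeq for mouse GRCm38.p6, with the bases GATTGG on either strand in capitals, the core of the class II Y box (an inverted CCAAT motif).
H2-Aa, chr17:34287824-34288073, minus strand: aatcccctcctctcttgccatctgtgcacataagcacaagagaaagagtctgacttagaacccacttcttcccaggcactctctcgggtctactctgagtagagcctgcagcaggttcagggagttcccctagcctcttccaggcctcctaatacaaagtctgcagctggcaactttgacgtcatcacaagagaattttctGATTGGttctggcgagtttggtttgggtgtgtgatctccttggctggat
H2-Eb1, chr17:34305617-34305866, plus strand: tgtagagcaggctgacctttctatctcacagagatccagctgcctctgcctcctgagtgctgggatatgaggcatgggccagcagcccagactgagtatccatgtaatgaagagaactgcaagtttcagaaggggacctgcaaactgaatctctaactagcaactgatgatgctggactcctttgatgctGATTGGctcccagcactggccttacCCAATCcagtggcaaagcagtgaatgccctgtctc
Cd68, chr11:69666171-69666420, minus strand: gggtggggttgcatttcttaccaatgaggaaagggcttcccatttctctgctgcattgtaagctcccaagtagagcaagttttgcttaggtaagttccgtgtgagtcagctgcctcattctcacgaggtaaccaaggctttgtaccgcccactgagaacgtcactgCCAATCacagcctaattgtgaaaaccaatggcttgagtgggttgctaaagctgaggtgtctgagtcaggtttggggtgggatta
GATTGG began 49 bases before the start in H2-Aa and 60 bases before it in H2-Eb1, which held another copy on the opposite strand at 35 bases. The copy in Cd68 lay on the opposite strand at 84 bases. RefSeq promoters were at hand for 29 of the 39 markers, and GATTGG on either strand was in 5 of those 29 (17.2%), against 16.6% of 27025 gene promoters of the same length. Besides these 3 genes it was in Cd163 and Nkg7. GAGGAAG, a core bound by the myeloid factor PU.1, was in the promoters of C1qc, Cd5l, Fcgr1, Marco, S100a8 and Itgam, or 6 of 29 (20.7%), against 12% of all genes. A match is a description of these letters and not a binding site.

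In the livers labelled knockout, Sephs1 itself was not lower: its probe set read 9.89, 10.05 and 10.15 there, against 9.85, 9.74 and 9.93 in control livers. Its other 3 probe sets differed by 0.20 to 0.47 in the same direction, and the labels do not say whether any of them lies in the deleted part. The direction of every liver difference below therefore rests on the labels. In F9, Sephs1 read 7.79, 7.84 and 7.77 in knockdown cells, against 10.04, 10.03 and 9.94 in control cells. No source used here says that liver and F9 arrays were normalized together, so their levels are not set against each other. Differences are knockout or knockdown minus control on the log2 scale. They were tested with limma over all 18193 genes, and the threshold was an adjusted p (Benjamini-Hochberg) under 0.05.

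No marker passed in liver: 0 of 39 by limma, where 0.044% of all genes passed in either direction, and the smallest adjusted p among the markers was 0.578. At an unadjusted p under 0.05, 2 markers were lower, Cd79b and H2-Eb1, which is 5.13% of the 39 against 3.2% of all genes. None was higher at that level, against 4.08% of all genes. In 6 markers (15.4%) every liver labelled knockout was below every control liver, against 6.36% of all genes, and in 0 the groups stood apart the other way, against 8.42%. Those 6 were Csf1r, Fcer1g, H2-Aa, H2-Eb1, Cd79b and Ms4a1. These counts hold for the probe set read of each gene. The other Ms4a1 probe set gave 1.00, a difference in the other direction. On another Ptprc probe set (2.02) and on Cd8a probe sets with 0.38 and 1.31, every liver labelled knockout was above every control liver. The difference was negative in 34 of the 39 markers (87.2%), with a median of -0.28, while 45.8% of all genes had a negative difference and their median was 0.03. Markers share cells, so their signs are not independent of each other, and no test was run on the list.

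**Figure D1:**
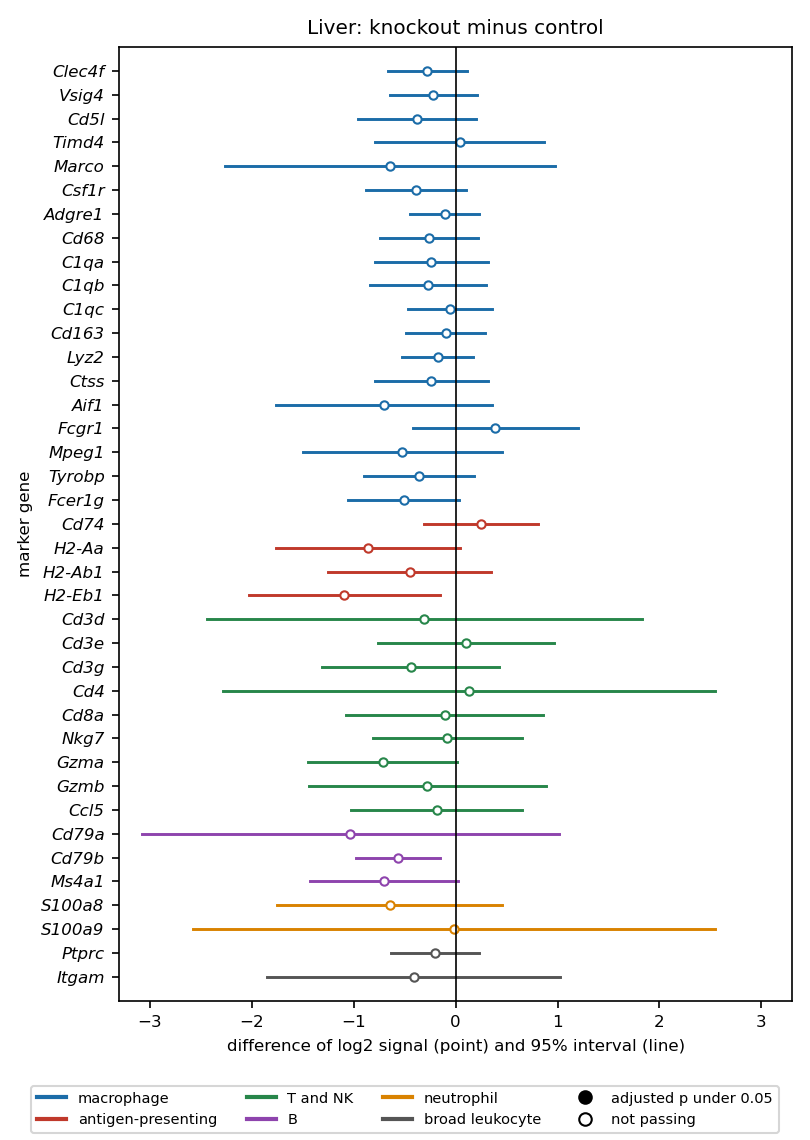
Difference of log2 signal between the livers labelled knockout and the control livers for each marker (point) with its 95% interval (line), coloured by cell class. All points are open because none passed, 34 of 39 lie left of 0, and only the intervals of Cd79b and H2-Eb1 leave out 0.

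Among the 19 macrophage markers, 17 differences were negative and 2 positive, with a median of -0.27, and none passed. Clec4f, a lectin receptor that in mouse liver marks Kupffer cells, read 10.67, 10.50 and 10.91 in the livers labelled knockout, against 11.05, 10.90 and 10.97 in control livers. The groups overlapped at the highest knockout value, and the difference was -0.28 (SE 0.15, 95% interval -0.67 to 0.11, adjusted p = 0.742). Vsig4, a receptor for complement C3 fragments, read 11.14, 10.75 and 11.11 in the livers labelled knockout, against 11.34, 11.26 and 11.05 in control livers. Its groups overlapped too (-0.22, 95% interval -0.64 to 0.21). Cd5l, a protein that macrophages secrete, averaged 11.68 ± 0.16 in the livers labelled knockout and 12.06 ± 0.38 in control livers (SD, n = 3 each), with control liver 2 at 12.49. Timd4, a receptor for phosphatidylserine on long-lived Kupffer cells, differed by 0.04 (SE 0.33), with 7.63 to 8.15 in the livers labelled knockout and 7.57 to 8.58 in control livers. Marco, a scavenger receptor, had a dim signal and spread over 4.72 to 6.69 in the livers labelled knockout and over 5.36 to 6.70 in control livers (-0.65, but 0.20 on its other probe set).

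Csf1r, the receptor for the growth factors CSF1 and IL-34, was read at 11.94, 11.64 and 12.18 in the livers labelled knockout, against 12.21, 12.53 and 12.19 in control livers. The groups did not overlap, but the gap between the nearest values was small beside the spread within either group, and the difference was -0.39 (SE 0.20, 95% interval -0.88 to 0.10, adjusted p = 0.730). It was -0.25 without KO liver 2, and the other Csf1r probe sets gave -0.15 and -0.13. Adgre1 encodes F4/80, the classical mouse macrophage antigen, and averaged 9.48 ± 0.13 in the livers labelled knockout and 9.59 ± 0.09 in control livers (SD, n = 3 each). Its interval of -0.45 to 0.23 is the narrowest of the 19. Cd68, a lysosomal glycoprotein of macrophages, read 7.85, 7.59 and 8.02 in the livers labelled knockout, against 7.87, 8.34 and 8.06 in control livers (-0.27, 95% interval -0.75 to 0.22).

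The genes for the complement component C1q, which liver macrophages make, had differences of -0.24 (C1qa), -0.28 (C1qb) and -0.05 (C1qc). C1qa read 10.61, 10.56 and 10.73 in the livers labelled knockout, against 10.97, 11.18 and 10.45 in control livers, so control liver 3 lay below the whole other group. Cd163, the receptor for haemoglobin bound to haptoglobin, differed by -0.10 (SE 0.16). Lyz2, the lysozyme of myeloid cells, and Ctss, the lysosomal protease cathepsin S, differed by -0.18 (SE 0.14) and -0.24 (SE 0.22). All 6 genes had overlapping groups.

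Aif1 and Mpeg1 had larger negative differences and a wide spread. Aif1, the calcium-binding protein IBA1, read 8.20, 7.31 and 7.51 in the livers labelled knockout, against 8.02, 9.17 and 7.94 in control livers. Mpeg1, the pore-forming protein perforin-2, read 10.89, 10.32 and 10.80 in the livers labelled knockout, against 10.77, 12.00 and 10.82 in control livers. In both genes control liver 2 was far above the others, and without it the differences were -0.31 in place of -0.70 for Aif1 and -0.13 in place of -0.53 for Mpeg1. Fcgr1, the high-affinity IgG receptor, was on the positive side at 0.39 (SE 0.32), with overlapping groups, but its other probe set gave -0.20 and the average of both 0.09.

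Tyrobp and Fcer1g encode the adaptor proteins DAP12 and the Fc receptor gamma chain, which carry activating signals in myeloid and NK cells. Fcer1g read 8.72, 9.05 and 9.23 in the livers labelled knockout, against 9.45, 9.82 and 9.27 in control livers. The groups did not overlap, and the difference was -0.51 (SE 0.22, 95% interval -1.06 to 0.04, adjusted p = 0.701). Without control liver 2 it was -0.36. Tyrobp read 9.68, 9.44 and 9.87 in the livers labelled knockout, against 10.07, 10.31 and 9.70 in control livers, with overlapping groups (-0.36, SE 0.22).

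The MHC class II chains had more negative differences than most markers. H2-Eb1, a class II beta chain, read 8.582, 8.518 and 8.003 in the livers labelled knockout, against 9.056, 10.209 and 9.113 in control livers. The groups stood apart, and the difference was -1.09 (SE 0.37, 95% interval -2.03 to -0.16, unadjusted p = 0.0295, adjusted p = 0.637). H2-Aa, a class II alpha chain, read 10.44, 10.56 and 10.40 in the livers labelled knockout, against 11.07, 12.11 and 10.80 in control livers. The knockout-labelled values lay within an SD of 0.08, while the control values had an SD of 0.69, mainly through control liver 2 (-0.86, SE 0.36, 95% interval -1.76 to 0.04, adjusted p = 0.701). The other H2-Aa probe sets gave -0.81, -0.61 and -0.14. The probe set read is of the x_at type, whose probes can match other sequences too, so related class II genes may add to it.

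H2-Ab1, the beta chain that pairs with H2-Aa, read 8.96, 9.46 and 9.27 in the livers labelled knockout, against 9.74, 10.20 and 9.10 in control livers. Its groups overlapped at control liver 3 (-0.45, SE 0.32), and its other probe sets gave -0.39 and -0.31. Cd74, the invariant chain that escorts class II molecules, went the other way: 8.59, 9.11 and 9.05 in the livers labelled knockout, against 8.95, 8.65 and 8.41 in control livers (0.25, SE 0.22, 95% interval -0.31 to 0.80). The groups of Cd74 overlapped. Leaving out control liver 2 moved H2-Eb1 to -0.72, H2-Aa to -0.47 and H2-Ab1 to -0.20. Without it 3 markers were at an unadjusted p under 0.05, H2-Aa and H2-Eb1 with negative differences and Cd4 with a positive one, and Cd79b no longer was.

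**Figure D2:**
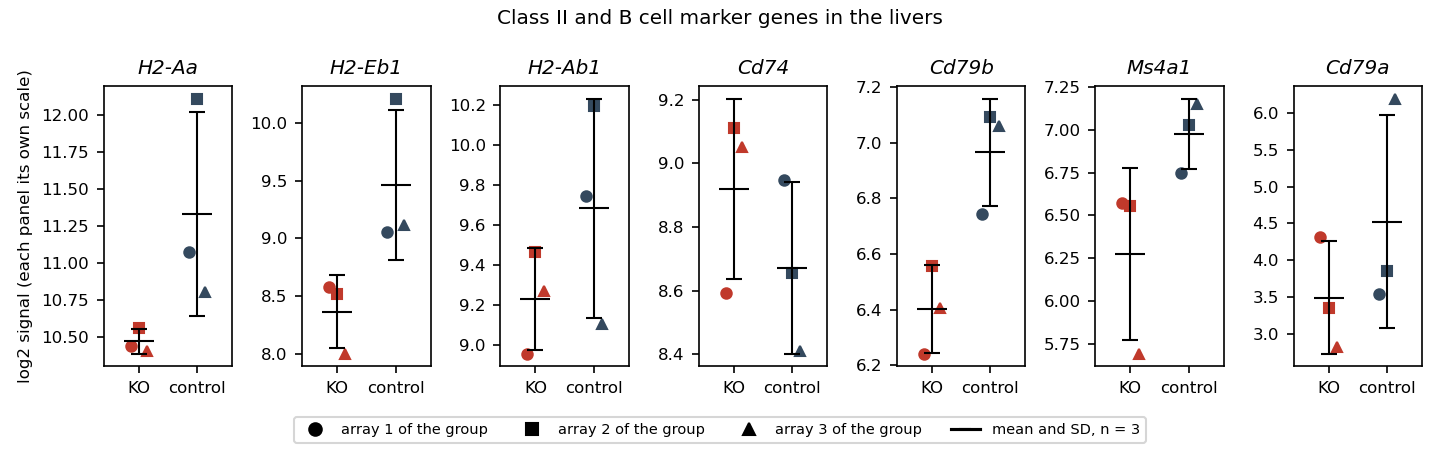
Log2 signal of the class II and B cell markers on each liver array, with the group mean and SD (n = 3), livers labelled knockout left of control livers; each panel has its own scale. In H2-Aa and H2-Eb1 the square of control liver 2 (12.11 and 10.21) stands above the other control arrays, and in Cd79b all 3 knockout-labelled points lie below all 3 control points.

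All 3 B cell markers had negative differences, and all 3 lay in the dimmer 50% of the genes on the liver arrays. Cd79b, the beta signalling chain of the B cell receptor, read 6.24, 6.56 and 6.41 in the livers labelled knockout, against 6.74, 7.09 and 7.06 in control livers. The groups stood apart with little spread in either, and the difference was -0.56 (SE 0.17, 95% interval -0.98 to -0.15, unadjusted p = 0.0166, adjusted p = 0.578). Ms4a1, the antigen CD20, read 6.57, 6.55 and 5.69 in the livers labelled knockout, against 6.75, 7.03 and 7.15 in control livers (-0.70, SE 0.29, adjusted p = 0.694). The groups of Ms4a1 did not overlap on that probe set, but its other probe set gave 1.00, and the mean of both gave 0.15. Cd79a, the partner chain of Cd79b, spread over 2.82 to 4.32 in the livers labelled knockout and over 3.54 to 6.19 in control livers (-1.03, SE 0.82). Without control liver 3, the highest of the 6, the Cd79a difference was -0.20.

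The 9 T and NK markers also lay in the dimmer 50% of genes, and on the probe sets read their groups overlapped in every case. Cd3d, Cd3e and Cd3g, the signalling chains of the T cell receptor complex, differed by -0.31, 0.10 and -0.44. The co-receptor genes Cd4 and Cd8a differed by 0.13 (SE 0.96) and -0.11 (SE 0.39), and Cd4 ran from 3.33 to 6.98 within the control livers alone. Both signs depended on the probe set: the other Cd4 probe set gave -0.77, the other Cd8a probe sets gave -0.41 to 1.31, and averaging turned Cd4 to -0.32 and Cd8a to 0.22. On the Cd8a probe sets with 0.38 and 1.31 every liver labelled knockout was above every control liver, and neither passed (limma adjusted p = 0.767 and 0.741). Gzma, a granzyme of cytotoxic cells, read 5.63, 5.38 and 6.17 in the livers labelled knockout, against 6.42, 6.82 and 6.08 in control livers (-0.72, SE 0.29, adjusted p = 0.692). Gzmb, a second granzyme, Nkg7, a protein of cytotoxic granules, and the chemokine gene Ccl5 differed by -0.28, -0.08 and -0.19. Of the 9 T and NK markers, 7 turned sign when some single array was left out, and only Cd3g and Gzma did not.

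S100a8 and S100a9 encode the subunits of calprotectin, an abundant calcium-binding complex of neutrophils, and both were dim. S100a8 read 4.55, 5.14 and 5.91 in the livers labelled knockout, against 6.14, 6.17 and 5.23 in control livers (-0.65, SE 0.44). S100a9 ran from 3.22 to 6.50 in the livers labelled knockout and from 3.64 to 5.89 in control livers, so that its difference of -0.02 has an SE of 1.02. Ptprc, the pan-leukocyte antigen CD45, read 8.72, 8.99 and 9.12 in the livers labelled knockout, against 9.19, 9.30 and 8.95 in control livers (-0.20, SE 0.17). A second, dim Ptprc probe set gave 2.02. Itgam, the integrin chain CD11b, differed by -0.41 (SE 0.57), and by 0.18 without KO liver 3.

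The precision differed between bright and dim markers. For the 22 markers in the brighter 50% of genes, the pooled SD within groups had a median of 0.27 and the 95% interval reached a median of 0.55 to either side. For the 17 dimmer markers these values were 0.53 and 0.97. Of the 22 brighter markers 20 (90.9%) had a negative difference, against 47% of all brighter genes, and of the 17 dimmer ones 14 (82.4%), against 44.6%.

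The macrophage markers moved together across arrays within a group as well. Control liver 2 was the highest of the 6 arrays in 24 of 39 markers (61.5%), against 16.5% of all genes, and KO liver 2 was the lowest in 14 (35.9%), against 16.8%. In 8 genes of sinusoidal endothelium, which are not leukocyte genes, control liver 2 was the highest in 4 (50%) and KO liver 2 the lowest in 1 (12.5%). Among the 19 macrophage markers control liver 2 was highest in 15 and KO liver 2 lowest in 12. Among the 9 T and NK markers these counts were 3 and 2. KO liver 2 was the lowest in 0 of the 4 class II group markers and 0 of the 3 B cell markers. The median deviation of the macrophage markers from their own means was -0.10, -0.34 and 0.06 in the livers labelled knockout, and 0.09, 0.40 and -0.10 in the control livers. KO liver 3 was thus above control liver 3, and the ranges of the groups overlapped. Without control liver 2 the median over the 39 markers was -0.20, with 30 negative, the median of the macrophage markers was -0.14, and that of the class II group was -0.33 in place of -0.66. Without KO liver 2 the median of the macrophage markers was -0.17. The part these single livers have in the negative differences was not tested further.

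**Figure D3:**
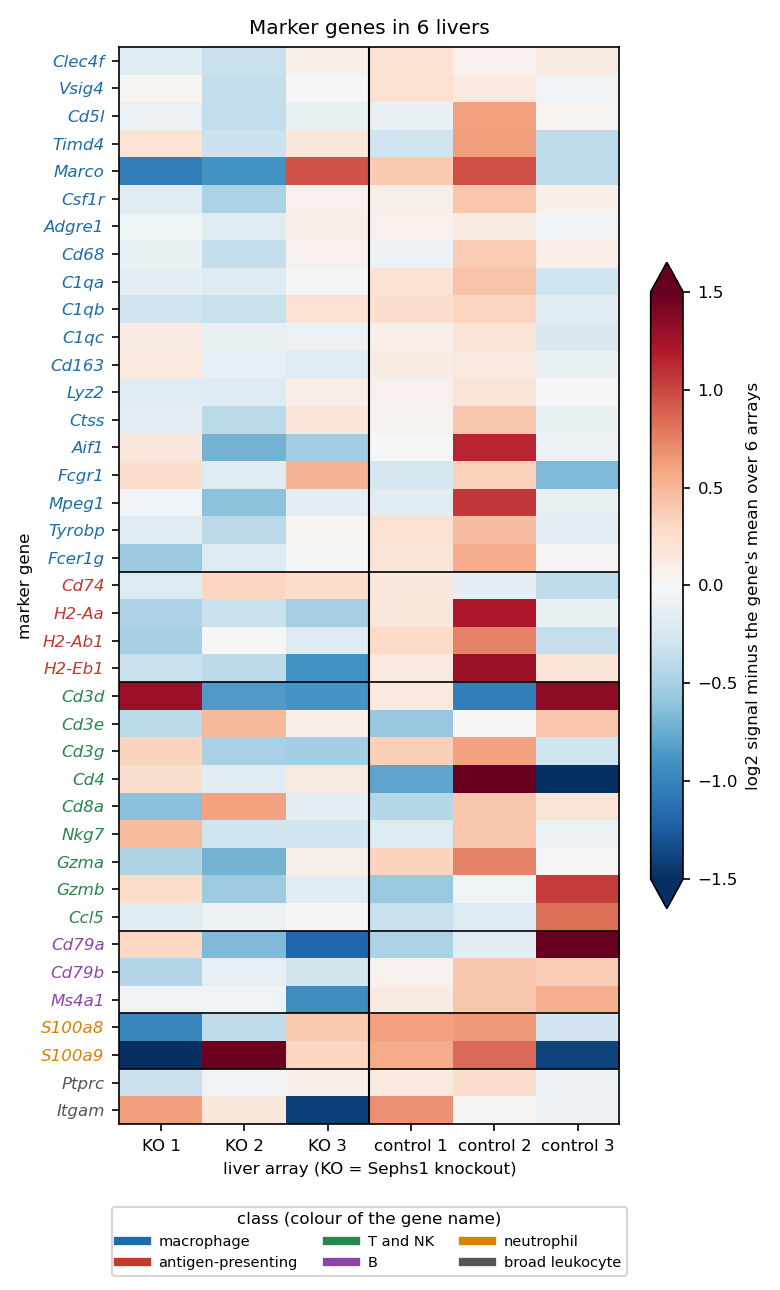
Log2 signal of each marker on each liver array, minus its mean over the 6 arrays (colour, cut at -1.5 and 1.5), with the livers labelled knockout left of the black line and control livers right of it; gene names are coloured by class. The column of control liver 2 is red through most of the macrophage and class II rows, and that of KO liver 2 is blue through most macrophage rows.

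**Figure D4:**
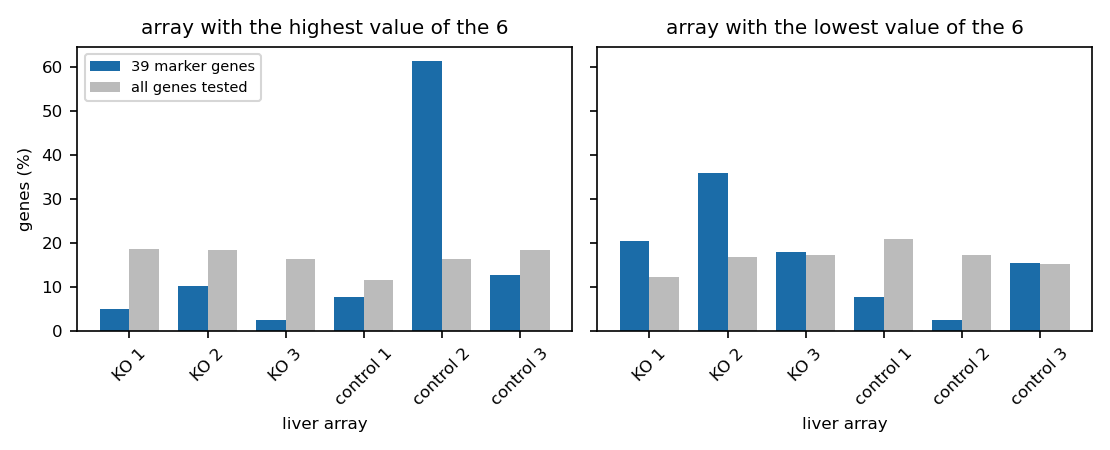
Share of genes (%) for which each liver array had the highest value of the 6 (left) and the lowest (right), for the 39 markers and for all genes tested. Control liver 2 holds the highest value in 61.5% of the markers against 16.5% of all genes, and KO liver 2 the lowest in 35.9% against 16.8%.

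Further genes of the same cells, listed by function, were read beside the markers, and again 0 passed. Of 21 other macrophage genes, 17 had negative differences (median -0.13) and 0 were at an unadjusted p under 0.05. Of 11 genes of macrophage growth and lineage, 8 were negative (median -0.13) and 2 were at that level, both lower, against 3.2% of all genes. Irf8, a transcription factor of monocytes and dendritic cells, read 7.61, 7.11 and 7.38 in the livers labelled knockout, against 8.14, 8.11 and 7.77 in control livers (-0.64, SE 0.20, adjusted p = 0.587, but -0.22 when its probe sets were averaged). Maf, a transcription factor of resident macrophages, read 10.93, 10.94 and 10.77 in the livers labelled knockout, against 11.86, 11.40 and 11.12 in control livers (-0.58, SE 0.22, adjusted p = 0.659). The Maf difference was -0.35 when its probe sets were averaged and -0.38 without control liver 1. The groups of both genes stood apart.

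The other class II and dendritic genes were split between the signs: 6 of 12 were negative, with a median of 0.11. Of the 12, 11 were dim, and the pooled SD within groups had a median of 0.54, so most of these signs are uncertain. Batf3, a transcription factor of cross-presenting dendritic cells, read 6.40, 7.15 and 7.31 in the livers labelled knockout, against 7.37, 7.54 and 7.42 in control livers. Its groups stood narrowly apart (-0.49, SE 0.27, adjusted p = 0.741). H2-DMa, which loads peptide onto class II, was the 1 bright gene of the 12 and differed by -0.26, with overlapping groups. The remaining T and NK genes (5 of 11 negative, median 0.10), B cell genes (5 of 8, median -0.03) and neutrophil genes (4 of 9, median 0.18) were split between the signs. Most of these were dim too: 10 of 11, 6 of 8 and 9 of 9. Monocyte genes were negative in 4 of 5 (median -0.33). Mpo, the peroxidase of neutrophil granules, read 6.034, 5.793 and 6.109 in the livers labelled knockout, against 6.495, 6.521 and 6.427 in control livers (-0.50, SE 0.14, adjusted p = 0.547). Mmp9, a gelatinase of neutrophil granules, differed by 1.47 (SE 0.45, adjusted p = 0.591), and by 0.51 when its probe sets were averaged.

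Of 16 cytokine and chemokine genes made by macrophages and other cells, 9 were negative. At an unadjusted p under 0.05, 3 of the 16 were higher, against 4.08% of all genes, and the list was drawn up with the Tnf result known. Tnf, the inflammatory cytokine, read 6.82, 6.43 and 6.16 in the livers labelled knockout, against 3.62, 3.85 and 3.05 in control livers, in a dim probe set. The groups stood far apart (2.96, SE 0.28, adjusted p = 0.0973). Il12b, a subunit of interleukins 12 and 23 and also dim, differed by 1.07 (SE 0.22, adjusted p = 0.337), and Ccl9, a macrophage chemokine, by 0.62 (SE 0.15, adjusted p = 0.453). Il12b and Ccl9 have 2 probe sets each, and these values are those of the brighter one.

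Markers of the other liver cells gave the setting of these values. In 8 of 9 hepatocyte genes the difference was positive (median 0.26), with control liver 1 the lowest array in all 9. In 7 of them every liver labelled knockout was above every control liver, against 8.42% of all genes. At an unadjusted p under 0.05, 2 were higher, against 4.08%. Group means of these genes ran from 15.01 to 15.99, near the highest of all genes (16.14). For the genes looked at, the difference depended on the scaling. After quantile normalization Ttr, the thyroid hormone carrier transthyretin, differed by 0.05 in place of 0.41. Apoa1, the main protein of HDL, then differed by -0.06 in place of 0.33. The other hepatocyte genes were not read under that scaling. In the 8 genes of sinusoidal endothelium 7 were negative (median -0.06). The 8 stellate and fibroblast genes had a median of -0.06, and the 4 bile duct genes, 3 of them dim, had 0.53. Of 3 erythroid genes, Slc4a1, the band 3 protein of red cells, was higher at an unadjusted p under 0.05 (1.48, adjusted p = 0.476, and 0.96 when its probe sets were averaged). The part of cell composition in the marker differences was not tested.

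In F9 cells, a line with no blood cells, the markers gave the contrast: all 39 lay in the dimmer 50% of genes, with 20 negative and 19 positive differences and a median of -0.003. With single arrays left out the number of negative differences ran from 13 (without control sample 1) to 26 (without control sample 3). The macrophage markers had a median of -0.02, with 13 of 19 negative, the class II group -0.08, the T and NK markers 0.07 and the B cell markers 0.06. Differences were positive in 8 of the 9 T and NK markers and in all 3 B cell markers. H2-Eb1 averaged 5.24 ± 0.22 in knockdown cells and 5.34 ± 0.09 in control cells (SD, n = 3 each), and Clec4f 5.02 ± 0.10 in knockdown cells and 5.03 ± 0.11 in control cells. Csf1r differed by 0.10 (SE 0.17), with overlapping groups. The probe sets still give a signal for genes that this line is not known to use, so a dim value here is no sign of expression.

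Cd68 was the exception. It read 5.92, 5.81 and 5.68 in knockdown cells, against 4.99, 5.18 and 5.12 in control cells, and the groups stood apart. It rose by 0.71 (SE 0.09, 95% interval 0.51 to 0.91, adjusted p = 0.00325), or 1.63-fold, and was the only marker to pass: 1 of 39 (2.56%), against 2.49% of all genes higher in knockdown cells. That share is near the background. Its signal was read from a single probe set in the dimmer 50% of genes. The genes next to Cd68 on chromosome 11, looked at after its value was seen, did not pass: Eif4a1, a translation initiation factor, differed by -0.01 (SE 0.07) and Mpdu1, a glycosylation protein, by -0.01 (SE 0.08). Of the neighbours further away, Senp3 differed by -0.23 (SE 0.07, limma adjusted p = 0.123), Sox15 by -0.16, Fxr2 by -0.12 and Polr2a by 0.10. None of these passed either.

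At an unadjusted p under 0.05, 2 markers were lower in knockdown cells (5.13% against 11.6% of all genes) and 4 higher (10.3% against 8.86%). The lower ones were Mpeg1 (-0.27, adjusted p = 0.0995) and Timd4 (-0.26, adjusted p = 0.126). Those higher besides Cd68 were Ccl5 (0.27), Cd4 (0.24) and Cd79a (0.16). Mpeg1 ran from 4.78 to 4.82 in knockdown cells and from 4.98 to 5.22 in control cells, with no overlap. Of the 21 further macrophage genes 1 passed, Lgmn, the lysosomal protease legumain, close to the threshold (0.33, adjusted p = 0.0468). Of the 8 endothelial genes 1 passed, Pecam1, the adhesion protein CD31, in the other direction (-0.74, adjusted p = 0.00172). Over all 18193 genes 1238 passed in either direction.

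**Figure D5:**
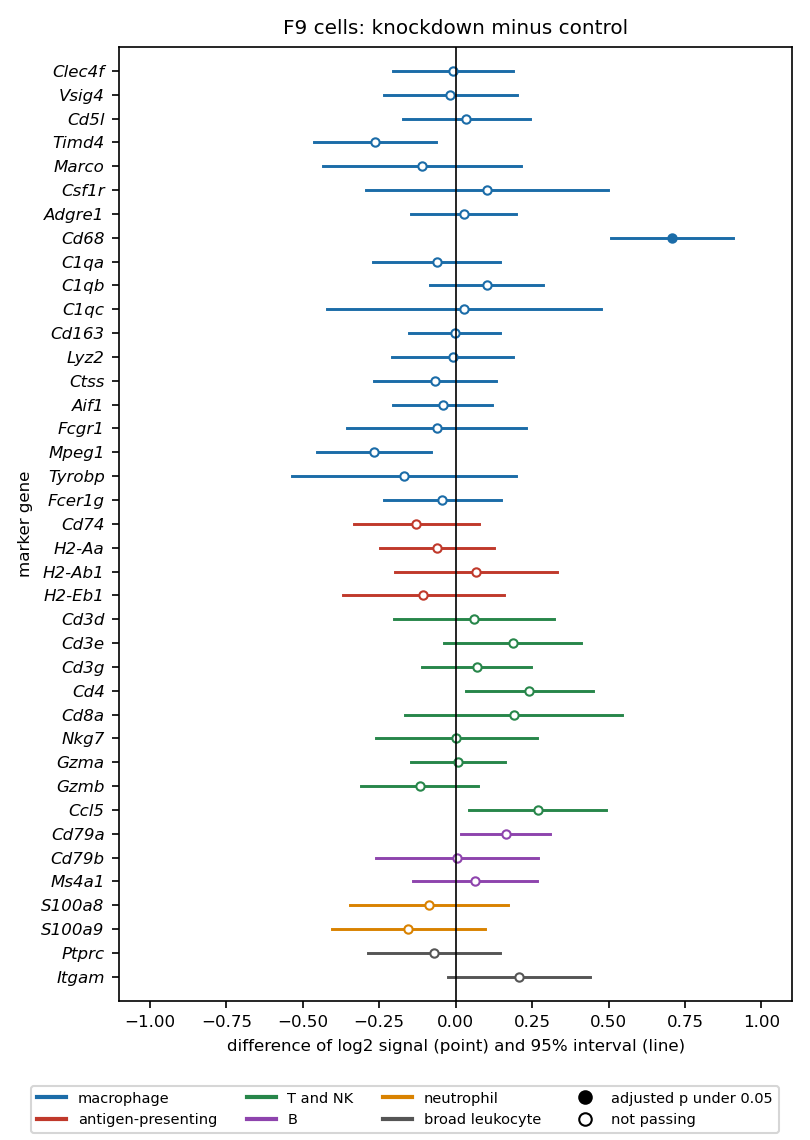
Difference of log2 signal between knockdown and control F9 cells for each marker (point) with its 95% interval (line), coloured by cell class; the horizontal scale is narrower than that of the liver plot. Cd68 at 0.71 is the single filled point, and the other 38 markers lie between -0.27 and 0.27.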

How the data were processed

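Total RNA of 6 livers and 6 F9 samples (100 ng each, per the labels) was hybridised to Affymetrix 3′ arrays. The deposited values are log2 signals; R 3.0.1 and affy 1.38.1 are listed in the submitters' processing notes, and the background correction and normalization are not given in the sources used here. Of 45101 probe sets per array, those naming several genes (932) or none (9211) were left out. Each of 18193 genes was read from its brightest probe set in liver, in both tissues. Each tissue was fitted on its own 6 arrays by lmFit and eBayes of limma 3.58.1 (R 4.3.3), two-sided, without a block or a filter and with Benjamini-Hochberg adjustment over all genes; the procedure was tested on simulated data. A permutation test of 3 against 3 arrays cannot go below 0.1. The number of arrays limits the precision. The files hold no detection calls; a gene is called dim when its mean lies in the lower 50% of genes on that tissue's arrays.

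The markers, the further gene lists (133 of 149 genes measured), the motifs and the tests were chosen with earlier results of these data known. All markers are named with values; of each further list, up to 4 genes with the smallest liver p, and any that passed, could be named, and Tnf was added from earlier results. The alternatives tried were to leave out each array in turn, a replicate block, quantile normalization, median centring, leaving out dim genes, the mean of probe sets, an intensity trend and, in F9, the brightest probe set there; each probe set by itself was added after seeing the data.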

Additional observations from a re-analysis of the deposited data

How the results depend on the processing

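In liver 0 of 39 markers passed under every alternative run with limma, and 30 to 36 of the 39 differences were negative in each alternative that kept all markers. The count at an unadjusted p under 0.05 was 2, ran from 1 to 6 with single arrays left out and was 4 with an intensity trend. Without control liver 3 it was 6 (C1qa, Fcer1g, Gzma, H2-Aa, H2-Ab1 and H2-Eb1), and without KO liver 1 or 2 it was 1. The macrophage median ran from -0.39 to -0.14 and that of the class II group from -0.93 to -0.33 with single arrays left out. The mean of probe sets turned the sign of 4 markers, Ptprc (0.91), Ms4a1 (0.15), Cd8a (0.22) and Cd4 (-0.32), and with Ptprc the median of Ptprc and Itgam (0.25). The adjusted p of Tnf ran from 0.0789 to 0.376, and Ccl9 passed with an intensity trend (0.0444).

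Same-numbered samples did not deviate together (correlations of -0.05 to 0.01 in liver and -0.21 to 0.01 in F9). With so few arrays this cannot exclude that the numbers pair the samples, and the main fit used no pairing. With a replicate block 2 liver markers and 3 F9 markers were at an unadjusted p under 0.05, in place of 2 and 6. In F9 that count ran from 3 to 10 with single arrays left out, being 10 without control sample 1 and 3 without knockdown sample 2 or control sample 2. Cd68 passed under all alternatives run (adjusted p 0.00199 to 0.0255; 0.0239 with the replicate block). The F9 median of the T and NK markers ran from 0.053 to 0.188 with single arrays left out, and that of Ptprc and Itgam was 0.23 with the brightest probe set in F9, in place of 0.07. Leaving out dim genes left 22 markers in liver and 0 in F9, so it gave no F9 values. The causes of these moves were not tested, except where the probe sets are named.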
